A study of Bos taurus with 11 samples.

Results

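Keratins of simple and basal epithelium were followed across the endometrium of fertile and subfertile cows. The set was KRT8, KRT18, KRT7 and KRT19, which are keratins of simple epithelium, and KRT5, KRT14, KRT15 and KRT17, which are keratins of basal cells. Probes were taken where the gene name in the scanner files equalled a member, and 16 of the 43653 non-control probes met this rule, for 7 of the 8 genes. No probe carried the name KRT15. The 4 probes that the array names KRT13 carry a transcript accession that the RefSeq gene table (assembly ARS-UCD2.0) now gives to KRT15, so they are described as KRT15 by accession and kept out of every count of members.

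Keratins are the intermediate filament proteins of epithelial cells. A filament is built from pairs of an acidic type I chain (KRT14, KRT15, KRT17, KRT18 and KRT19 here) and a basic type II chain (KRT5, KRT7 and KRT8 here). KRT8 with KRT18 is the usual pair of simple epithelia, such as the single-layered lining and glands of the uterus, while KRT5 with KRT14 is the pair of basal cells in layered epithelia. Uterine stromal cells build their filaments from vimentin instead.

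Tissue was an endometrial biopsy from Bos taurus on day 7 of the oestrous cycle, with 1 array per cow. The 6 fertile cows had conceived by embryo transfer or insemination within 3 attempts, and did so again at the first transfer after the biopsy. The 5 subfertile cows had 3 failures in a row, with normal-looking genital tracts and cycles. A biopsy mixes epithelium, stroma, vessels and other cells, so fewer cells of a type and less RNA per cell cannot be told apart. Levels are log2 processed signal minus the array's 75th percentile, so 0 is the level of a probe at that percentile. Differences are subfertile minus fertile on the same log2 scale, with n = 6 and n = 5.

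The groups also differed in how bright the arrays were. The log2 median processed signal lay between 7.33 and 8.82 on fertile arrays and between 5.76 and 6.53 on subfertile arrays, a difference of -1.93 (two-sided exact permutation test over 462 splits, p = 0.00216, the smallest they allow). A probe counts as well above background where the scanner software marks it so. Fertile arrays had 74.2% ± 1.88 (SD, n = 6) of probes so marked, and subfertile arrays 68.5% ± 3.53 (SD, n = 5) (two-sided exact permutation test, p = 0.0130). No slide or scan day held both groups: the subfertile arrays were on 3 slides scanned on 1 day, and 5 of the fertile arrays were on 3 other slides scanned on 3 other days. Slide, day, brightness and fertility group therefore cannot be told apart. The file of fertile cow 6 gives no slide or day, so a separate level was used for it in those blocks.

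The probes are printed first because the reading of each keratin depends on what its probe can bind. Each is 60 bases long, is written 5′ to 3′ as deposited, has at least 1 reading frame without a stop codon and lies upstream of the end of its transcript. Such a frame does not mark a probe as coding, since some probes at transcript ends have one too. Capitals mark the longest run of bases shared with a probe of another gene on the array.
KRT8 A_73_P204142: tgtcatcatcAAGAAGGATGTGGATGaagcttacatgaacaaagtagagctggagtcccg
KRT18 A_73_P107191: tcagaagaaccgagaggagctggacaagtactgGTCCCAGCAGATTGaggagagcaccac
KRT18 A_73_P097441: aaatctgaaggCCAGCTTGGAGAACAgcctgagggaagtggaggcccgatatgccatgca
KRT19 A_73_P251856: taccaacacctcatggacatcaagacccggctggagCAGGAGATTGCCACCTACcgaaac
KRT15 A_73_P444261: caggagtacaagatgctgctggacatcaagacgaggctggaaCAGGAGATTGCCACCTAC
KRT15 A_73_P455786: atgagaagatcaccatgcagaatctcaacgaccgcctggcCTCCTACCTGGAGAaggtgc
KRT17 A_73_P349856: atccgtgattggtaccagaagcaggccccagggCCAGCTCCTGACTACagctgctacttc
KRT17 A_73_P037816: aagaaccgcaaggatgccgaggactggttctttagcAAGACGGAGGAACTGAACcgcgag
KRT14 A_73_P309126: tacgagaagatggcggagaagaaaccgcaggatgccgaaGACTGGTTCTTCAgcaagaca

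The KRT8 probe is shown because its run of 16 bases is shared with a probe of KRT75, another type II keratin. The KRT19 and KRT15 probes A_73_P251856 and A_73_P444261 hold the same 18 bases, from the conserved end of the rod domain of type I keratins. The KRT17 probe A_73_P037816 and the KRT14 probe A_73_P309126 cover matching stretches of both genes, with 35 of 42 aligned bases identical (83.3%), and the files list a transcript of both genes for that KRT17 probe. The capitals in these probes do not mark that match. In the KRT17 probe they mark 18 bases shared with a probe named APLNR, and in the KRT14 probe 13 bases shared with a probe of a transcript with no gene name. The KRT18 probes, KRT17 A_73_P349856 and KRT15 A_73_P455786 are shown because each was called higher. Their longest shared runs, 14 to 15 bases, were with probes of genes that are not keratins.

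In the coordinates of the files, which use the build HGSC Btau_3.1 per the file headers, the type II genes and KRT18 lay on chromosome 5 and the other type I genes on chromosome 19. The KRT8 probe A_73_P204142 spans chr5:30001773-30002266 (+), and the KRT18 probe A_73_P097441 spans chr5:29956573-29956818 (-). The KRT19 probe A_73_P251856 lies at chr19:43089461-43089520 (-), the KRT15 probe A_73_P455786 at chr19:43083552-43083611 (-) and the KRT17 probe A_73_P349856 at chr19:43198402-43198461 (-). For 6 of the 16 probes the span in the genome is longer than the probe, so the probe joins exons. Another 5 of the 16 hold AATAAA, the core of the polyadenylation signal, on the probe's own strand, as did 9.35% of all 43653 probes of 60 bases. Those 5 are the brightest probes of KRT8, KRT18, KRT7 and KRT14 and the KRT19 probe A_73_101632, and they are named only.

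Of the 16 member probes, 13 from 6 genes were well above background on at least 5 arrays and were tested. With limma and Benjamini-Hochberg adjustment over all 31877 tested probes, 6 of the 13 (46.2%) were higher in subfertile cows and 0 were lower, against 14.8% of all tested probes called higher and 7.40% called lower. At an unadjusted p below 0.05, 11 were higher and 0 lower. The share of all tested probes passing that cut-off was not counted, here or below, so these counts have no background beside them. The called probes belonged to KRT8, KRT18, KRT19 and KRT17, with differences of 0.81 to 0.97. The median difference over the 13 was 0.81, beside 0.07 over all tested probes, and each of the 13 differences was above 0, except that KRT14 turned to -0.03 when arrays were scaled to non-keratin epithelial markers, which shifts all probes alike. Groups did not overlap for 1 of the 13, where 9.61% of all tested probes had every subfertile cow above every fertile cow.

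The calls, more than the size of the differences, changed with the block and with single cows. With slide as a random block, 0 of the 6 passed (limma adjusted p from 0.0664 to 0.0973), beside 8.55% of all tested probes called higher, and 9 of the 13 had an unadjusted p below 0.05. With scan day as the block, 0 passed (limma adjusted p from 0.174 to 0.240), beside 2.42%, and 8 had an unadjusted p below 0.05. The median keratin difference was 0.81 with the slide block and 0.79 with the day block, beside 0.81 with neither. Leaving out subfertile cow 2 left 0 calls, where 9.90% of all tested probes were called higher. Leaving out fertile cow 1, subfertile cow 1 or subfertile cow 5 left 1 call each, beside 11.2%, 12.3% and 11.3% of all tested probes. Without fertile cow 3 there were 3 calls beside 12.5%, and without fertile cow 2 there were 9 beside 14.3%. By probe, the KRT18 calls passed in 5 (A_73_118812), 7 (A_73_P107191) and 10 (A_73_P097441) of the 11 fits without 1 cow, the KRT8 call in 7, the KRT17 call in 4 and the KRT19 call in 3. The way arrays were scaled mattered too: after quantile normalization 3 of the 13 were called, beside 10.2% of all tested probes called higher and 9.87% lower, and with normexp background correction 11 were, beside 46.8% called higher. The 3 called after quantile normalization were KRT18 A_73_P107191 and A_73_P097441 and KRT17 A_73_P349856 (limma adjusted p = 0.0311, 0.0316 and 0.0493).

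**Figure D1:**
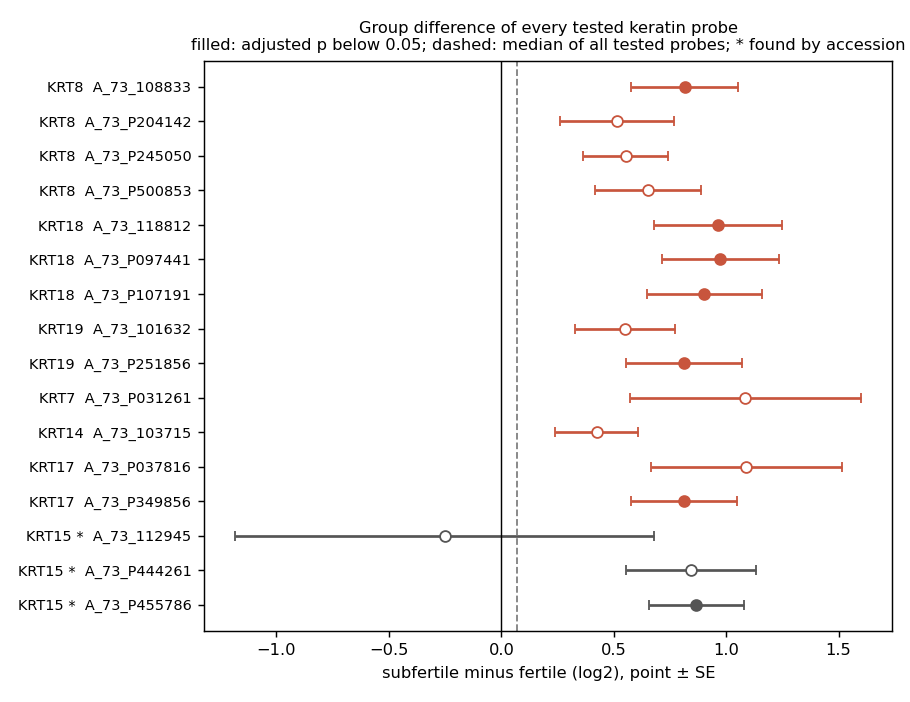
Difference between groups (x axis, subfertile minus fertile, log2) for each of the 13 tested member probes and the 3 tested KRT15 probes found by accession (grey, starred), as point and SE; filled points have a limma adjusted p below 0.05. The member probes lie between 0.42 and 1.09, to the right of the dashed line at 0.07, the median of all tested probes; KRT14 moves to -0.03 when arrays are scaled to epithelial markers.

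KRT18, the type I chain of simple epithelium, was higher in subfertile cows on each of its 3 probes. On the brightest, A_73_118812 at the transcript's end, fertile cows had a lowest level of 2.49, a median of 3.36 and a highest of 4.25. Subfertile cows 1 to 5 had levels of 4.67, 4.46, 3.74, 4.12 and 4.50. Fertile cow 6 stood above subfertile cows 3 and 4, and the other 5 fertile cows lay below every subfertile cow. The difference was 0.96 (SE 0.29), a 1.95-fold ratio (limma adjusted p = 0.0327).

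The upstream probes of KRT18 printed above gave nearly the same picture. On A_73_P097441, fertile levels ran from 1.04 through a median of 1.84 to 2.57, and subfertile levels were 3.19, 3.03, 2.17, 2.69 and 2.90. Its difference was 0.97 (SE 0.26, limma adjusted p = 0.0213). A_73_P107191 differed by 0.90 (SE 0.26, limma adjusted p = 0.0274). The 3 probes followed each other closely from cow to cow, with correlations after removing the group means of 0.97 to 0.99 over the 11 arrays, which share the arrays' own scaling.

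KRT8, the type II partner of KRT18, was represented by 4 probes, of which the brightest was called. That probe, A_73_108833 at the transcript's end, had fertile levels with a lowest of 3.62, a median of 4.73 and a highest of 4.96. Subfertile cows 1 to 5 had levels of 5.48, 5.37, 5.04, 5.15 and 5.46, each above every fertile cow. The difference was 0.81 (SE 0.24), a 1.76-fold ratio (limma adjusted p = 0.0302). With quantile normalization it was 0.53 and with scaling to the median 0.72, and neither passed (limma adjusted p = 0.120 and 0.0573).

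Further upstream the KRT8 differences were smaller and none passed the threshold. A_73_P204142, printed above, had fertile levels from -2.53 through a median of -1.95 to -0.85, and subfertile levels of -1.15, -1.38, -1.38, -1.13 and -1.36, none of them above fertile cow 2. It differed by 0.51 (SE 0.25, limma adjusted p = 0.166), A_73_P500853 by 0.65 (SE 0.24, limma adjusted p = 0.0678) and A_73_P245050, nearest the transcript's start, by 0.55 (SE 0.19, limma adjusted p = 0.0555). Subfertile cows were close to each other on A_73_P204142 (SD 0.13, n = 5) while fertile cows were spread (SD 0.60, n = 6). Correlations between the KRT8 probes within groups ran from 0.55 to 0.99 over the 11 arrays. Over 3739 pairs of probes in the same transcript, the upstream minus downstream difference was itself 0.11 higher in subfertile cows (two-sided exact permutation test, p = 0.0455), a gap in the opposite direction to that among the KRT8 probes.

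KRT19, a small type I keratin without the usual tail and a common marker of simple epithelium, was called on 1 of 2 probes. On A_73_P251856, which shares its 18 bases with the KRT15 probe, fertile levels ran from 1.18 through a median of 1.94 to 2.45. Subfertile levels were 3.04, 2.72, 2.15, 3.17 and 2.54, so that cow 3 fell among the fertile cows and the other 4 lay above them. The difference was 0.81 (SE 0.26), a 1.76-fold ratio (limma adjusted p = 0.0428). The probe at the transcript's end, A_73_101632, differed by 0.55 (SE 0.22, limma adjusted p = 0.0979), and the within-group correlation of the KRT19 probes was 0.97 over the 11 arrays. The call on A_73_P251856 was lost in 8 of the 11 fits that left out 1 cow, with an adjusted p of up to 0.0891.

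KRT7, a type II keratin of glandular and ductal epithelium, was spread widely among fertile cows (SD 1.12, n = 6) and was not called. Its single probe, A_73_P031261, had fertile levels of -3.01 at the lowest, -1.32 at the median and -0.19 at the highest. Subfertile levels were -0.21, 0.25, -1.54, 0.10 and -0.22, with cow 3 far below the other 4. The difference was 1.09 (SE 0.51, limma adjusted p = 0.149). A neighbouring probe, A_73_118357, of a transcript with no gene name, shares 52 bases with it and gave 1.18 (SE 0.48, limma adjusted p = 0.102), with a within-group correlation of 0.995 to the KRT7 probe over the 11 arrays.

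**Figure D2:**
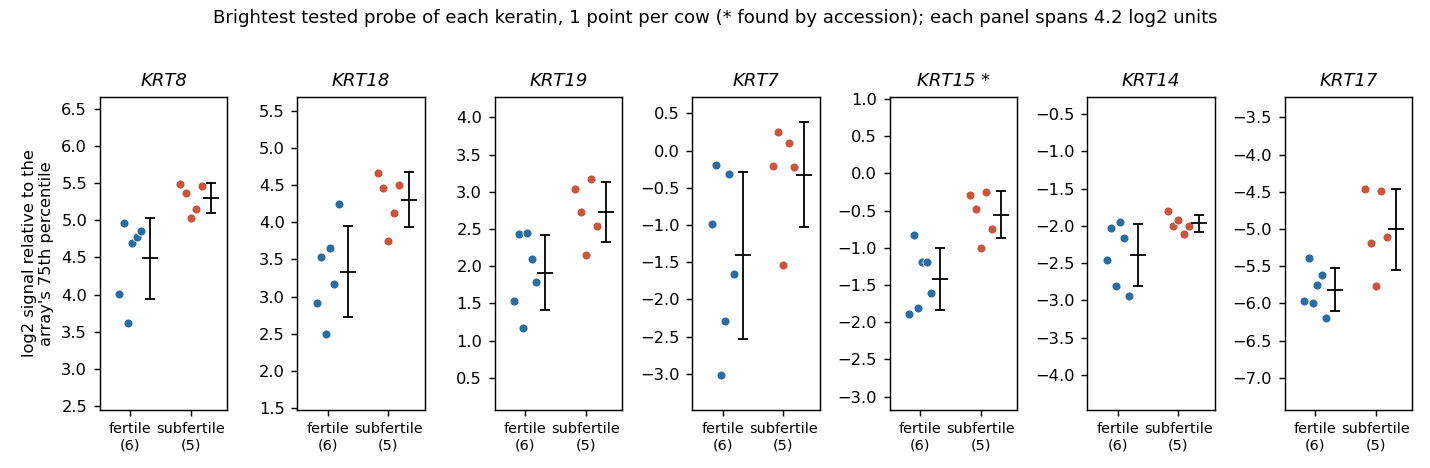
Level of the brightest tested probe of each keratin in every cow (y axis, log2 signal relative to the array's 75th percentile), with the group mean and SD beside the 6 fertile (blue) and 5 subfertile (red) cows; each panel covers the same span of log2 units but starts at its own level. The groups part without overlap for KRT8, where subfertile cows lie from 5.04 to 5.48, and overlap in the other panels.

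KRT15, a type I keratin of basal cells in layered epithelia, was read on the 4 probes found by accession, and these did not behave alike. On A_73_P455786 fertile levels ran from -1.89 through a median of -1.40 to -0.83, and subfertile levels were -0.29, -0.48, -1.0, -0.26 and -0.74. Only fertile cow 2 lay above a subfertile cow. The difference was 0.87 (SE 0.21), a 1.82-fold ratio (limma adjusted p = 0.0148), and it passed in each of the 11 fits that left out 1 cow. A random block for slide gave an adjusted p of 0.0285, and one for scan day 0.123 (limma).

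The KRT15 probe A_73_P444261, also printed above, followed it with a within-group correlation of 0.93 over the 11 arrays and differed by 0.84 (SE 0.29, limma adjusted p = 0.0555). The probe nearest the transcript's end, A_73_112945, did not follow them. Its fertile levels ran from -6.26 to -1.21 around a median of -3.83, its subfertile levels were -2.88, -4.38, -4.86, -5.70 and -2.59, and its difference was -0.25 (SE 0.93, limma adjusted p = 0.871). Its within-group correlation was -0.23 with A_73_P455786 and 0.84 with A_73_P473568. That last probe was well above background in 2 fertile and 0 subfertile cows and was not tested.

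KRT14, the type I chain of basal cells, was read on 1 tested probe and did not pass. On A_73_103715 fertile levels ran from -2.94 through a median of -2.31 to -1.95, and subfertile levels were -1.80, -2.0, -1.92, -2.11 and -2.0. Subfertile cows thus sat within the upper range of the fertile cows, with cows 1 and 3 above it. The difference was 0.42 (SE 0.18, limma adjusted p = 0.118), and it became -0.03 when arrays were scaled to epithelial markers, a scaling that lowers the difference of every probe by the same amount (a shift of -0.45). The other KRT14 probe, A_73_P309126, printed above, was well above background in 1 of 6 fertile and 1 of 5 subfertile cows and was not tested.

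KRT17, a type I keratin of basal cells that is induced in stressed and wounded epidermis, was faint. On A_73_P349856 fertile levels ran from -6.19 through a median of -5.86 to -5.39, and subfertile levels were -4.47, -5.19, -5.77, -4.49 and -5.10. The difference was 0.81 (SE 0.24), a 1.76-fold ratio (limma adjusted p = 0.0300), with subfertile cow 3 among the fertile cows and not well above background.

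These KRT17 levels were close to the limit of detection, and that limit moved with the groups. The lowest level among probes well above background averaged -6.74 on the 6 fertile arrays and -5.80 on the 5 subfertile arrays, 0.94 apart in the same direction as KRT17. The part of this shift in the KRT17 call was not tested. A_73_P037816, the KRT17 probe that matches KRT14, was well above background in 4 fertile and 3 subfertile cows and differed by 1.09 (SE 0.42, limma adjusted p = 0.0865). The within-group correlation of the KRT17 probes was 0.16 over the 11 arrays.

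KRT5, the type II chain of basal cells, was at or near background. A_73_P048351 was well above background in 0 of 6 fertile cows and only in subfertile cow 1, at -6.08. A_73_P251266 was well above background in 3 fertile cows, at -5.90, -5.85 and -5.80, and only in subfertile cow 1, at -4.17. No fold is given for either probe, since the bound for the former was under 1 and the latter was detected in both groups on too few arrays to be tested. TP63, the transcription factor that defines basal epithelium, was on the array and did not pass the filter on dim signal. Of the basal keratins, KRT14 and KRT15 were thus well above background on every array by at least 1 probe each, whereas KRT5, the partner of KRT14, was not.

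The keratins did not all vary together from cow to cow. After the group means were removed, KRT8 and KRT18, the partners of a filament, had a correlation of 0.84 over the 11 arrays. KRT19 and KRT15, both type I genes on chromosome 19, had 0.93, KRT17 and KRT15 had 0.81, and KRT19 and KRT17 had 0.78. KRT15 is read here on its brightest probe, A_73_P455786, which A_73_P444261 followed (0.93) and A_73_112945 did not (-0.23). KRT17 is read on A_73_P349856, which was close to the limit of detection and which the other KRT17 probe, A_73_P037816, did not follow closely (0.16). KRT14 stood apart from KRT18, at 0.06. All of these share the arrays' scaling and are descriptions of 11 arrays.

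Keratin levels also differed between slides within the fertile group. Fertile cows 2 and 5 shared a slide, as did fertile cows 1 and 3. The level was higher on the slide of cows 2 and 5 for 12 of the 13 tested probes, with gaps of -0.94 (KRT17 A_73_P037816) to 1.75 (KRT7). For the brightest KRT8 probe the means were 4.87 and 3.81, a gap of 1.05 beside the difference of 0.81 between fertility groups. For KRT18 A_73_P097441 the gap was 0.58 beside 0.97. With 2 cows a slide, animal, slide, scan day and array brightness cannot be told apart. The log2 median processed signal was 8.82 and 8.70 in cows 2 and 5, and 7.44 and 7.33 in cows 1 and 3. The share of all tested probes that were higher on the slide of cows 2 and 5 was not counted.

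The levels of KRT8 and KRT18 followed the other markers of simple epithelium. The mean of 22 such genes, among them EPCAM, CDH1 and CLDN3, was 0.43 higher in subfertile cows (two-sided exact permutation test, p = 0.00433), with group means of -0.20 ± 0.20 (SD, n = 6) and 0.24 ± 0.09 (SD, n = 5). The correlation with this mean within groups was 0.89 for KRT8, 0.84 for KRT18, 0.64 for KRT7 and for KRT19, 0.57 for KRT15, 0.25 for KRT17 and 0.16 for KRT14 over the 11 arrays. When each array was scaled to these genes, the median keratin difference was 0.36 in place of 0.81 and 0 of 13 probes were called by limma, beside 2.41% of all tested probes called higher, with 3 at an unadjusted p below 0.05. That scaling moved the median of all tested probes from 0.07 to -0.38.

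**Figure D3:**
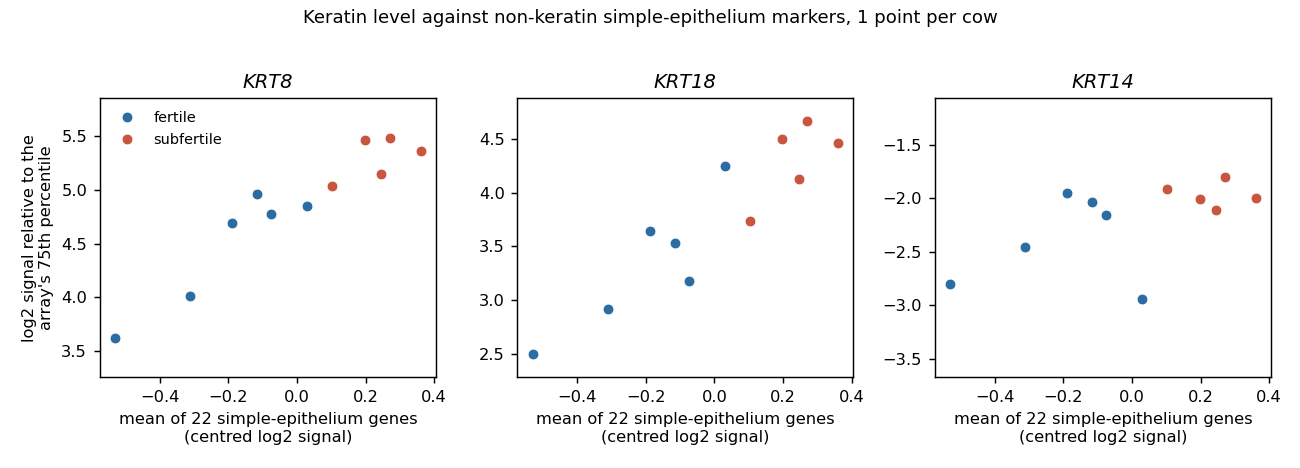
Level of KRT8, KRT18 and KRT14 in each cow (y axis, log2 signal of the brightest tested probe relative to the 75th percentile) against the mean of 22 non-keratin simple-epithelium genes (x axis, centred log2 signal). KRT8 and KRT18 climb with the epithelial mean across the 11 cows (within-group correlations 0.89 and 0.84), while KRT14 does not follow it closely (0.16).

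Among the simple-epithelium genes themselves, 8 of 22 were higher and 0 lower in subfertile cows, with a median difference of 0.45. Over all 18505 genes with 1 probe each, 14.2% were higher and 7.91% lower, with a median of 0.06. Differences were above 0 for 19 of the 22. The others, named after their values were seen, were EHF at -0.18 (SE 0.22), MUC1 at -0.08 (SE 0.28) and CLDN7 at -0.04 (SE 0.23). Their limma adjusted p were 0.587, 0.866 and 0.915. CLDN3, a tight-junction claudin, had fertile levels of -0.44 to 0.55 and subfertile levels of 0.82 to 1.42 and rose by 1.08 (SE 0.18, limma adjusted p = 0.00253). TJP3, a tight-junction scaffold, rose by 0.59 (SE 0.12) and ELF3, an epithelial transcription factor, by 0.54 (SE 0.15), with limma adjusted p of 0.00779 and 0.0280. EPCAM, the epithelial adhesion molecule, was 0.54 higher (SE 0.17, limma adjusted p = 0.0413). CDH1, the epithelial cadherin, had fertile levels of 2.38 to 3.24 and subfertile levels of 3.26 to 3.40 and differed by 0.45 (SE 0.15, limma adjusted p = 0.0573). Of these, CLDN3 and TJP3 also passed with slide as a random block (limma adjusted p = 0.00857 and 0.0313), and CLDN3 with scan day (0.0415). After quantile normalization CLDN3, at 1.07, and TJP3, at 0.55, passed (limma adjusted p = 0.00314 and 0.0116). ELF3, at 0.40, and EPCAM, at 0.32, then did not pass (limma adjusted p = 0.0713 and 0.199). CDH1 was at 0.34 (limma adjusted p = 0.125).

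Basal and squamous markers gave a mixed account. Of the 12 basal genes 7 were tested, and 0 were higher and 0 lower by limma, with 1 higher at an unadjusted p below 0.05. The smallest p-values were those of TRIM29, at 1.32 (SE 0.60, limma adjusted p = 0.135, well above background in 3 of 6 fertile cows), and NGFR, the nerve growth factor receptor of basal cells, at 0.42 (SE 0.27, limma adjusted p = 0.279). Of 8 tested squamous genes 2 were higher and 0 lower, beside the 14.2% of all genes called higher, and the median was 0.60. KRT6A, KRT4 and KRT10 among them are counted again with the other keratins below. IVL, which encodes the envelope protein involucrin, rose by 0.87 (SE 0.17, limma adjusted p = 0.00631) and CNFN, another envelope gene, by 0.70 (SE 0.19, limma adjusted p = 0.0220). Both passed with slide as a random block (limma adjusted p = 0.0232 and 0.0377) and neither with scan day (0.0889 and 0.117). The squamous genes below 0, named after their values were seen, were SBSN at -0.60 (SE 0.32) and ECM1 at -0.51 (SE 0.28), with limma adjusted p of 0.196 and 0.215.

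Most other keratins did not pass the filter on dim signal. Of 36 further keratin genes on the array, 13 were tested. Of these 4 were higher and 0 lower, beside 14.2% and 7.91% of all genes, with a median difference of 0.60. KRT35, a type I hair keratin, had fertile levels of -1.64 to 0.73 and subfertile levels of 1.36 to 1.83 and rose by 2.28 (SE 0.43, limma adjusted p = 0.00489). KRT79, KRT80 and KRT78, type II keratins of epithelia, rose by 0.70 (SE 0.18), 1.08 (SE 0.32) and 1.1 (SE 0.34), with limma adjusted p of 0.0163, 0.0326 and 0.0392. With slide as a random block KRT35, KRT79 and KRT78 passed (limma adjusted p = 0.00820, 0.0255 and 0.0490), and KRT80 did not (0.0970). With scan day as the block KRT35 passed (limma adjusted p = 0.0403), and KRT79, KRT80 and KRT78 did not (0.112, 0.215 and 0.166). The KRT35 level in fertile cows also differed between slides, by 2.12 between cows 2 and 5 and cows 1 and 3.

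Genes of the proteins that tie keratin filaments to cell junctions gave no call in the direction of the keratins. Of 12 tested linker and desmosome genes 0 were higher and 2 lower by limma, beside 14.2% and 7.91% of all genes. At an unadjusted p below 0.05 there were 0 higher, and the median difference was 0.07. DST, which encodes dystonin, a linker of filaments to hemidesmosomes, had fertile levels of 3.25 to 3.95 and subfertile levels of 2.68 to 3.22 and fell by 0.60 (SE 0.14, limma adjusted p = 0.0132). PKP1, a desmosomal plakophilin, fell by 1.55 (SE 0.48, limma adjusted p = 0.0405). JUP, the junction protein plakoglobin, differed by 0.35 (SE 0.16, limma adjusted p = 0.147) and PKP4 by -0.25 (SE 0.16, limma adjusted p = 0.264). With slide as a random block DST and PKP1 differed by -0.57 and -1.45 and did not pass (limma adjusted p = 0.0693 and 0.150).

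**Figure D4:**
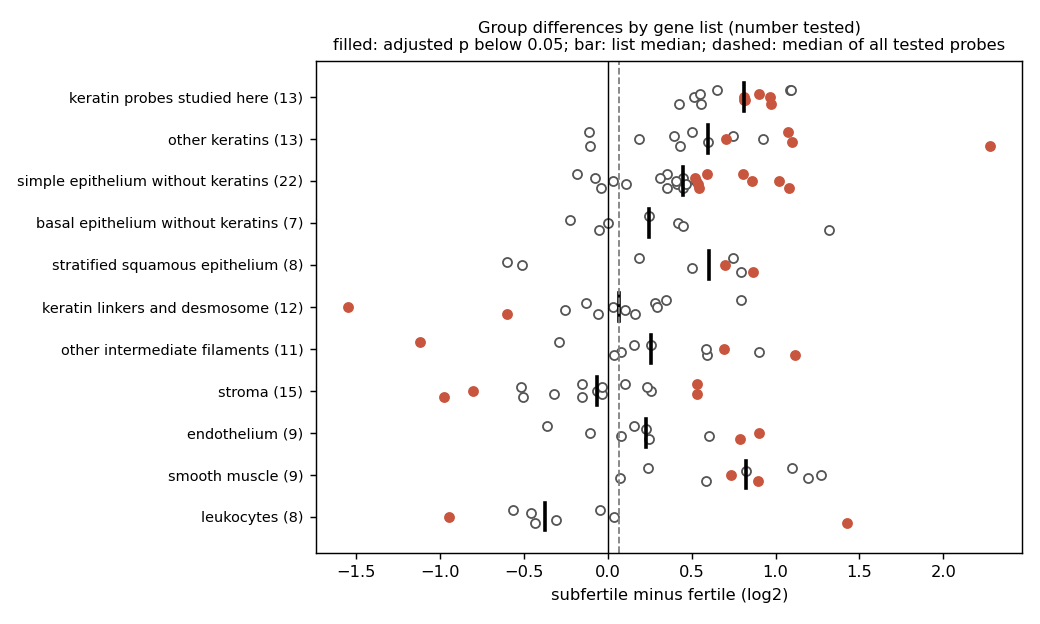
Group differences (x axis, subfertile minus fertile, log2) of the 13 tested keratin probes and of the tested genes in 10 lists, 1 point each, filled where the limma adjusted p is below 0.05, with the list median as a bar. Some lists overlap: KRT6A, KRT4 and KRT10 stand in both the squamous and the other-keratin list, and VIM and DES are also in more than 1 list. Medians are 0.81 for the keratin probes, 0.82 for smooth muscle, 0.60 for stratified squamous epithelium and for other keratins, 0.45 for simple epithelium, 0.26 for other intermediate filaments, 0.25 for basal epithelium, 0.23 for endothelium, 0.07 for linkers and desmosome, -0.07 for stroma and -0.37 for leukocytes.

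Filaments of other cell types are given beside these. VIM, the vimentin of stromal cells, differed by 0.26 (SE 0.14, limma adjusted p = 0.187) and by -0.32 after quantile normalization. Of 15 tested stromal genes 2 were higher and 2 lower, beside 14.2% and 7.91% of all genes, with a median of -0.07. FBN1, the microfibril protein fibrillin, and FN1, fibronectin, fell by 0.98 (SE 0.20) and 0.80 (SE 0.17), with limma adjusted p of 0.00633 and 0.00827. The stromal genes called higher, named after their values were seen, were COL3A1, a fibrillar collagen, and DCN, the proteoglycan decorin, each by 0.53 (SE 0.14 and 0.17, limma adjusted p = 0.0205 and 0.0431). After quantile normalization these turned to -0.24 and -0.34, while FBN1 and FN1 stayed below 0 at -1.04 and -0.90. With slide as a random block FBN1 and FN1 passed (limma adjusted p = 0.0277 and 0.0470), and COL3A1 and DCN did not (0.0888 and 0.133). With scan day as the block FBN1 and FN1 did not pass either (limma adjusted p = 0.0965 and 0.110). The mean of the stromal list lay between -0.08 and 0.26 in fertile and between -0.36 and 0.10 in subfertile cows (two-sided exact permutation test, p = 0.238). The epithelial minus stromal mean was 0.56 higher in subfertile cows (two-sided exact permutation test, p = 0.00649). The part of this balance of markers in the keratin differences was not tested beyond the scaling above.

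Of 11 tested genes of other intermediate filaments 2 were higher and 1 lower, with a median of 0.26. Over all genes 14.2% were higher and 7.91% lower, which stands beside this list and those that follow. LMNA, the nuclear lamin, rose by 1.12 (SE 0.12, limma adjusted p = 0.000337) and GFAP, the glial filament protein, by 0.69 (SE 0.18, limma adjusted p = 0.0203). With slide as a random block LMNA passed and GFAP, at 0.65, did not (limma adjusted p = 0.00177 and 0.0960). Smooth-muscle genes had a median of 0.82, with 2 of 9 higher (SMTN and LMOD1, by 0.89 and 0.73), and with slide as a random block LMOD1, at 0.77, did not pass (limma adjusted p = 0.0885). Their list mean ran from -1.49 to 0.76 in fertile cows. In subfertile cows it was 2.02 in cow 1 and between -0.17 and 0.16 in the other 4. Endothelial genes had a median of 0.23 with 2 of 9 higher (PLVAP and TIE1, by 0.79 and 0.90). Leukocyte genes had a median of -0.37 with 1 of 8 higher (CD79A, by 1.43) and 1 lower (PTPRC, by -0.95), and for mesothelium MSLN and UPK3B differed by -0.08 and -0.15 with 0 of 2 called by limma, also at an unadjusted p below 0.05.

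The genes whose levels ran most like each keratin were found among 11896 named genes, by the correlation over the 11 arrays after removing group means. As the highest of so many correlations over few arrays, these values are high by selection, and no relation between the genes was tested. For KRT8 these were SPTLC2 (0.98), MACROH2A1 (0.97) and ECHDC2 (0.97), and for KRT18 POLR2G (0.97), HTR1A (0.96) and BCAT2 (0.96). KRT7 ran most like another type II keratin, KRT83 (0.95), then C11H2orf42 (0.91) and ATF6 (0.90). KRT19 ran like RAB7A (0.95), SLC39A3 (0.94) and ACADS (0.94), and KRT15 like RCC1 (0.95), HYOU1 (0.94) and PITPNA (0.93). For KRT14 the genes were ADORA1 (0.95), NDUFS8 (0.92) and PHB2 (0.91), and for the faint KRT17 TRAF5 (0.92), NECAB2 (0.91) and ACTR3 (0.89). Among them, HYOU1 and ATF6 were called higher in subfertile cows, at 1.0 and 0.49 (limma adjusted p = 0.00696 and 0.0360).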

How the data were processed

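Total RNA was labelled with Cy3 and hybridised to 1-colour Agilent bovine arrays, per the labels' protocols. Agilent Feature Extraction 10.5.1.1 was used, per the submitters' processing notes. The deposited scanner files hold intensity on a linear scale, as processed signal (background-subtracted), mean signal and local background. A table of log2 values deposited by the authors served as an alternative, and its sign is that of the signal (r from 0.958 to 0.998 per array with the scanner values centred by probe). Its scaling is not stated, its column medians run from -0.08 to 0.09, and 77.9% to 88.4% of probes lay within 0.01 of the scanner-derived values in 10 arrays, and 21.7% in fertile cow 1. No coordinates were converted.

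Outlier spots were left out, log2 processed signal was set to each array's 75th percentile over non-control spots, and spots of a probe were averaged. Probe names came from the files of the other 10 arrays for fertile cow 6, joined by probe. Probes well above background on at least 5 of 11 arrays (31877) were tested with limma 3.58.1 (lmFit, eBayes, group only) in R 4.3.3, with a threshold of 0.05 after Benjamini-Hochberg adjustment, and the steps were tested on simulated data. Single scores were compared with exact permutation tests. A gene with several tested probes is represented by its brightest. Genes were named by rule: the keratins with all probes, in each list the 2 smallest p (4 for other keratins, linkers and simple epithelium), EPCAM, CDH1, TP63 and VIM, and the 3 genes most like each keratin. Of these, 1 gene is left unreported but stays in the counts. The members and lists were chosen with earlier results of these data known. The labels give each cow its own animal number, and the alternatives tried are described with their effects in the closing section.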

Additional observations from a re-analysis of the deposited data

Results flagged for a closer look

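In 2 of 40 groups of values over the keratin probes, 1 cow lay far from the rest by Dixon's criterion, which chance alone gives in about 1 in 20 groups. For KRT7 (A_73_P031261) subfertile cow 3 stood at -1.54, while the other subfertile cows lay between -0.22 and 0.25. The gap was 0.736 of the range. For KRT14 (A_73_P309126, not tested) fertile cow 5 stood at -4.16, while the other fertile cows lay between -8.03 and -7.08, and the gap was 0.755 of the range. Fertile cow 5 was the only fertile cow in which that probe was well above background.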

How the results depend on the processing

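The count of keratin probes called higher, 6 in the reported fit, was 11 with normexp background correction, 3 with quantile normalization, 2 with scaling to the median (10% of all tested probes higher, 10.6% lower), and 0 with scaling to epithelial markers, with slide as a block, with scan day as a block, and at an adjusted p below 0.01. It was 4 to 7 with the authors' table, other filters on dim probes, a trended robust variance, array weights and the KRT15 probes found by accession, the last chosen after seeing the data. With no filter on dim probes it was 7, beside 22.2% of all 43653 probes called higher. With probes well above background on all 11 arrays it was 6, beside 17.2%. The authors' table and the trended variance gave 6 each, beside 14.8% and 15%, and array weights gave 4, beside 16.2%. The share of all tested probes below 0.01 was not counted. Normexp called 46.8% of all tested probes higher and moved their median difference to 0.33. Without each cow in turn the count ran from 0 (subfertile cow 2) to 9 (fertile cow 2). The count called lower was 0 in every setting. The median keratin difference was 0.81 with the slide block, 0.79 with the day block, 0.36 with epithelial scaling and 0.66 to 0.96 without each cow. KRT14 (A_73_103715) reversed to -0.027 with epithelial scaling, which shifts every probe by -0.45. The cause of the other changes was not tested. The replicate numbers did not pair the cows (correlations of deviations from -0.21 to 0.22 over 5 pairs). A replicate block gave 5 calls, beside 9.51% of all tested probes called higher, with KRT17 (A_73_P349856) at 0.74 and a limma adjusted p of 0.0747. Array number and, for KRT5 and KRT17, signal near background limit what can be told.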
